A study of Mus musculus with 14 samples.

Results

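The primitive streak is the strip of the gastrulating embryo through which epiblast cells pass to become mesoderm and endoderm, and 9 transcription factors that mark it were followed here: T, Mixl1, Eomes, Gsc, Mesp1, Mesp2, Tbx6, Msgn1 and Evx1. They were taken by name as a set of streak and early mesoderm regulators, and all 9 were found among the 16181 genes of the deposited normalized table and the 50686 genes of the count table. PolyA RNA of mouse embryonic stem cells (ESCs) was sequenced from a line stably expressing a short hairpin RNA against Dis3l2, an exoribonuclease that degrades uridylated RNA (shDis3l2), and from a control line with a hairpin against LacZ (shLacZ). Both lines carried an Osr1-GFP reporter and are 1 line per hairpin. Undifferentiated cells grown with LIF and 2i (d0) and embryoid bodies (EBs), aggregates formed in hanging drops without LIF and 2i in medium with serum, sampled every other day to d12 gave 14 libraries, 1 per line and day.

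In the embryo, Nodal, Wnt and bone morphogenetic protein signals induce the streak in the posterior epiblast. T and Eomes, T-box factors, and Mixl1, a paired-type homeobox factor, come on as cells enter it. Gsc marks its anterior end and Evx1 its posterior part, Mesp1 marks nascent cardiac and head mesoderm, and Mesp2, Tbx6 and Msgn1 act in the presomitic mesoderm from which somites form. EBs pass through a comparable sequence without the layout of an embryo.

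Libraries held 7178712 reads on genes (shLacZ d4) to 39888099 (shLacZ d0), with 20695661 in shDis3l2 d4. Values are counts normalized to the library total (CPM). A count of 3 reads, used as the floor, corresponds to 0.0752 to 0.418 CPM. With 1 library per line and day, a fold between 2 libraries has no replicate check and carries no p-value, and its 95% Clopper-Pearson interval covers counting error only. Such a fold counted as past the criterion at 3-fold or more with at least 1 CPM in either library. In bulk RNA, fewer cells of a type and less RNA per cell cannot be told apart. The Dis3l2 level in shDis3l2 was 13.7% of shLacZ at d0 (95% interval 11.1 to 16.7%) and 32.1% at d4 (25.4 to 40.4%), but from d6 on it rose to 55.2%, 97.1%, 94.98% and 75.4%, so that at d8 and d10 the lines held nearly equal Dis3l2 RNA. The d0 libraries held 8 of 8 pluripotent-like markers, which summed to 3060 CPM in the shLacZ library and 2164 CPM in the shDis3l2 library.

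Promoter sequences (250 bases before to 50 after the RefSeq start, GRCm38.p6) were matched for 8 of the 9 genes, without Mixl1, and were searched on both strands for letters bound by factors of streak induction, because the 9 genes came on together. The T-box half-site AGGTGTGA was in 1 of 8 promoters against 1.28% of 32851 promoters, and its shorter core GGTGTGA, which overlaps it, in the same promoter against 3.98%. The TCF/LEF letters ATCAAAG, read by the Wnt pathway, were in 2 of 8 against 3.73%. The FOXH1 letters AATNCACA, read by the Nodal pathway, were in 1 of 8 against 3.6%. The E-box CANNTG was in 6 of 8 against 72.3%, and the homeobox letters TAATCC in 0 of 8 against 7.06%. The matches other than E-boxes lay in the mesoderm genes, namely the neighboring pair Mesp1 and Mesp2 and Msgn1, and are shown with the matched letters in capitals. The capitals mark TCF/LEF letters at -31 of Mesp1 (read on the opposite strand, chr7:79793606-79793635, minus strand), TCF/LEF letters at -203 of Msgn1 (chr12:11208973-11209198, minus strand), the T-box half-site at +6 of Mesp1 (read on the opposite strand, chr7:79793571-79793590, minus strand) and FOXH1 letters at +25 of Mesp2 (chr7:79810742-79810766, plus strand).
Mesp1, TCF/LEF: ctggctcgagccggCTTTGATatgctgatg
Msgn1, TCF/LEF: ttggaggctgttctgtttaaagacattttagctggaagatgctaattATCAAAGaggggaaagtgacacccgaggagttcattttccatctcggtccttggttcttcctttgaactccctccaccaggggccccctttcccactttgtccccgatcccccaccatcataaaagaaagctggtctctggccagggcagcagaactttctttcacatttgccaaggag
Mesp1, T-box: ccgctTCACACCTagggctc
Mesp2, FOXH1: aggggtcagAATCCACAcctctgca
A match describes letters in a window and not a bound site.

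The 9 genes were low before d4, apart from Eomes and from Gsc at d0, rose from d2 to d4 in both lines and fell by d6. The d4 level was the highest of the 7 days for all 9 in shDis3l2 and for all but Gsc in shLacZ. T (ENSMUSG00000062327, chr17:8434423-8442496, plus strand) stood at 2.01, 1.63, 486, 29.9, 6.86, 32.9 and 13.5 CPM from d0 to d12 in shLacZ. In shDis3l2 it stood at 2.27, 0.561, 795, 6.50, 1.17, 2.13 and 6.84 CPM on the same days. T, the founding T-box factor, needed for posterior mesoderm and notochord, was thus higher in shDis3l2 at d4 and lower on every later day. At d2 it was also lower there, 2.91-fold (43 reads against 12, 1.51 to 6.06), short of the 3-fold criterion. The d4 library held 84.9% of its summed CPM over the 7 days in shLacZ and 97.6% in shDis3l2.

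**Figure D1:**
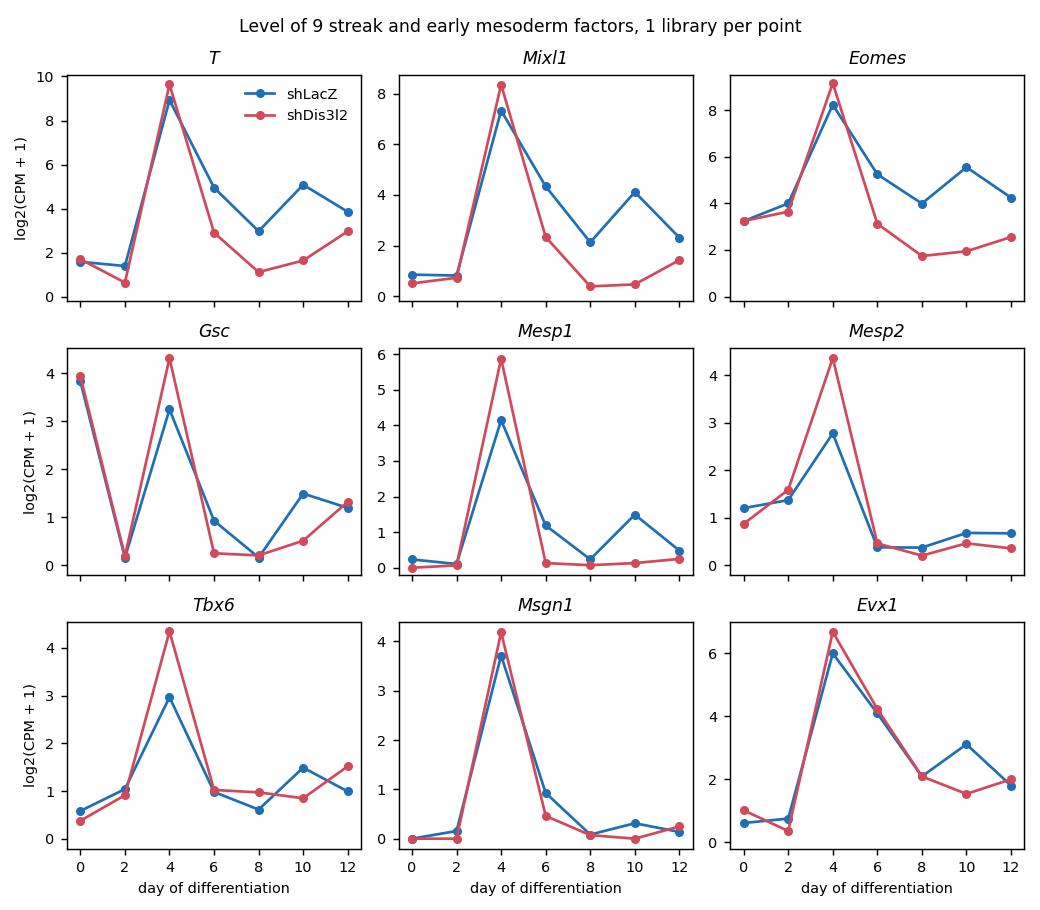
Level of each factor as log2(CPM + 1) against day of differentiation, 1 point per library, shLacZ in blue and shDis3l2 in red. Every panel rises from d2 to d4 and is highest there, except Gsc in shLacZ, which is highest at d0, and the red point is above the blue one at d4, while T, Mixl1 and Eomes lie lower in shDis3l2 from d6 to d12. Gsc alone starts high at d0 (13.2 and 14.3 CPM).

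Mixl1 (ENSMUSG00000026497, chr1:180693043-180697034, minus strand) had nearly the same course as T. It stood at 0.802, 0.758, 161, 19.2, 3.37, 16.3 and 3.97 CPM from d0 to d12 in shLacZ. In shDis3l2 its levels were 0.415, 0.654, 329, 4.05, 0.305, 0.379 and 1.69 CPM. Mixl1, which guides streak cells to mesoderm and endoderm, held 97.8% of its shDis3l2 sum at d4 and 78.4% of its shLacZ sum.

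Eomes (ENSMUSG00000032446, chr9:118478212-118486132, plus strand), which drives epiblast cells out of the epithelium and specifies definitive endoderm, was present before d4. Its levels from d0 to d12 were 8.42, 15, 300.2, 37.0, 14.9, 45.9 and 18.0 CPM in shLacZ. They were 8.46, 11.5, 571, 7.73, 2.34, 2.84 and 4.87 CPM in shDis3l2. Its shDis3l2 level at d6 (82 reads) was thus close to that of the undifferentiated cells (224 reads in a deeper library), and from d8 on it was below. In shLacZ all its levels from d6 on were above that of the undifferentiated cells. These values use library totals, and the TMM factors at d0 (0.711 in shLacZ, 0.623 in shDis3l2) were lower than on later days. An antisense gene, Gm33460, overlaps Eomes and had 10 reads in shLacZ and 29 in shDis3l2 at d4, and since the strand setting of the counting was not given in the sources used here, reads of the 2 genes cannot be told apart.

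Gsc (ENSMUSG00000021095, chr12:104471209-104473330, minus strand), a homeobox repressor of the anterior streak, differed from the other 8 in having comparable levels at d0 and d4. From d0 to d12 its level was 13.2, 0.114, 8.50, 0.902, 0.118, 1.82 and 1.29 CPM in shLacZ. In shDis3l2 it was 14.3, 0.140, 18.9, 0.188, 0.153, 0.426 and 1.5 CPM. The fall from d0 to d2 was 116-fold in shLacZ (39.6 to 566) and 102-fold in shDis3l2 (34.7 to 497), from 528 and 379 reads to 3 reads in each line. Only Gsc passed the criterion downward at this step in shLacZ (10.6% of protein-coding genes did), whereas in shDis3l2 it was joined by T, 4.04-fold lower, and Evx1, 3.64-fold lower (3 of 9, 10.2% of genes). Over d0 to d2 the median fold of all genes was itself 1.42 in shLacZ and 1.72 in shDis3l2 with library totals, and under the scalings that remove this shift Eomes, higher at d2 in shDis3l2 with library totals, turned lower.

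Mesp1 (ENSMUSG00000030544, chr7:79792241-79793788, minus strand), a basic helix-loop-helix factor of the earliest cardiac progenitors, was counted at 0.175, 0.0758, 16.7, 1.28, 0.177, 1.82 and 0.397 CPM in shLacZ. In shDis3l2 it was counted at 0, 0.0467, 57.7, 0.0942, 0.0509, 0.0947 and 0.187 CPM. Outside d4 it never exceeded 2 reads in shDis3l2, and 99.2% of its sum there fell on d4. Its neighbor Mesp2 (ENSMUSG00000030543, chr7:79810727-79813439, plus strand), which sets somite boundaries, was low but present from the start. It measured 1.30, 1.59, 5.85, 0.301, 0.296, 0.605 and 0.595 CPM in shLacZ and 0.831, 2.01, 19.6, 0.377, 0.153, 0.379 and 0.281 CPM in shDis3l2.

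Tbx6 (ENSMUSG00000030699, chr7:126781483-126785560, plus strand), which keeps presomitic cells from a neural fate, measured 0.501, 1.06, 6.83, 0.977, 0.532, 1.82 and 0.992 CPM in shLacZ. In shDis3l2 it measured 0.302, 0.888, 19.3, 1.04, 0.967, 0.805 and 1.87 CPM. Msgn1 (ENSMUSG00000047002, chr12:11208360-11208972, minus strand), a helix-loop-helix factor of the same tissue, had 87 reads (12.1 CPM) at d4 in shLacZ and 356 reads (17.2 CPM) in shDis3l2. On the other days it had 0 to 12 reads in shLacZ and 0 to 4 in shDis3l2. Tbx6 returned to about its level of d2 at d6, and Msgn1 was at or under the floor from d8 on.

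Evx1 (ENSMUSG00000005503, chr6:52313498-52318378, plus strand), an even-skipped-type homeobox factor of the posterior streak, kept more of its d4 level at d6 than the other 8. Its levels were 0.526, 0.682, 62.7, 16.0, 3.25, 7.63 and 2.48 CPM in shLacZ. They were 1.02, 0.280, 101, 17.7, 3.26, 1.89 and 3.0 CPM in shDis3l2. An antisense gene, Evx1os, overlaps it and followed a like course, with 161 reads in shLacZ and 906 in shDis3l2 at d4 and 117 in each at d6, and without a stated strand setting the reads of the 2 genes cannot be told apart.

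Set per exon length, as CPM per kilobase of exon, T led the set at d4 with 210 in shLacZ and 344 in shDis3l2. Eomes (72.2 and 137) and Mixl1 (70.2 and 143) followed, and their order was not the same in the 2 lines. Evx1 (21.8 and 35.2), Msgn1 (19.8 and 28.1) and Mesp1 (13.1 and 45.2) were in the middle, with Mesp1 above the other 2 in shDis3l2 only. Gsc (6.70 and 14.9), Tbx6 (3.78 and 10.7) and Mesp2 (3.01 and 10.1) were the lowest in both lines. With 1 library per line, neighbors in this order cannot be told apart beyond counting error.

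All 9 genes rose from d2 to d4 past 3-fold in each line, where 6.79% of protein-coding genes did in shLacZ and 7.31% in shDis3l2. In shLacZ, T rose 298-fold (221 to 413), Mesp1 221-fold (from 2 reads to 120), Mixl1 212-fold, Msgn1 107-fold, Evx1 91.9-fold, Gsc 74.7-fold and Eomes 20.1-fold, while Tbx6 rose 6.43-fold and Mesp2 3.68-fold (2.34 to 5.78). In shDis3l2, T rose 1418-fold, Mesp1 1235-fold (from 1 read to 1194), Mixl1 503-fold, Evx1 361-fold, Gsc 135-fold, Eomes 49.7-fold, Tbx6 21.8-fold and Mesp2 9.74-fold (7.10 to 13.7). Msgn1, at 0 reads at d2 in shDis3l2, rose at least 123-fold against the floor of that library. Mesp2, Tbx6 and Eomes had the 3 smallest folds in both lines.

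A test over all genes with the 2 lines standing in as replicates of a day called all 9 higher at d4 than at d2 (edgeR quasi-likelihood test, Benjamini-Hochberg adjusted p under 0.05), against 9.25% of 20050 genes. The log2 change was 9.64 ± 1.21 (SE) for T (adjusted p = 0.001), 5.31 ± 1.08 for Eomes (adjusted p = 0.00906) and 2.78 ± 0.56 for Mesp2 (adjusted p = 0.00881). The calls of Eomes and Mesp2 were lost without the shLacZ d2, shDis3l2 d2 or shDis3l2 d4 library, which left 7 of 9. The same test between d0 and d2 called 1 of 9, Gsc, lower (log2 change -7.31 ± 0.83, adjusted p = 3.5e-05), where 31% of genes were lower.

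At d4 all 9 genes stood higher in shDis3l2 than in shLacZ with a counting interval above 1, as did 18.4% of protein-coding genes. T was 1.64-fold higher (1.58 to 1.70), Eomes 1.90-fold (1.82 to 1.99), Mixl1 2.04-fold (1.92 to 2.17), Gsc 2.22-fold (1.69 to 2.96) and Evx1 1.62-fold (1.46 to 1.79). The mesoderm genes had both the largest and the smallest fold. Mesp1 was 3.45-fold higher (2.86 to 4.20), Mesp2 3.34-fold (2.43 to 4.71), Tbx6 2.83-fold (2.10 to 3.89) and Msgn1 1.42-fold (1.12 to 1.82). Mesp1 and Mesp2 passed the criterion, 2 of 9, against 0.361% of genes, and the direction was the same for all 9 with TMM or DESeq2 scaling. At d4 the shLacZ library is the shallowest of all 14. On the same day visceral endoderm-like markers summed to 846 CPM in shLacZ and 212 in shDis3l2, pluripotent-like markers to 1069 and 1136 CPM and epiblast-like markers to 1255 and 1402 CPM. Mesenchyme-like markers summed to 32.3 and 7.30 CPM, primitive erythroid-like markers to 4.88 and 0.532 CPM and neural-like markers to 228 and 197 CPM. Past 3-fold lower in shDis3l2 were 4 of 6 visceral endoderm-like, 2 of 7 pluripotent-like, 4 of 5 mesenchyme-like and 2 of 2 erythroid-like markers compared, and 0 of 4 epiblast-like and 0 of 3 neural-like ones, against 1.69% of genes. Their part in the difference of the streak factors at d4 was not tested.

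**Figure D2:**
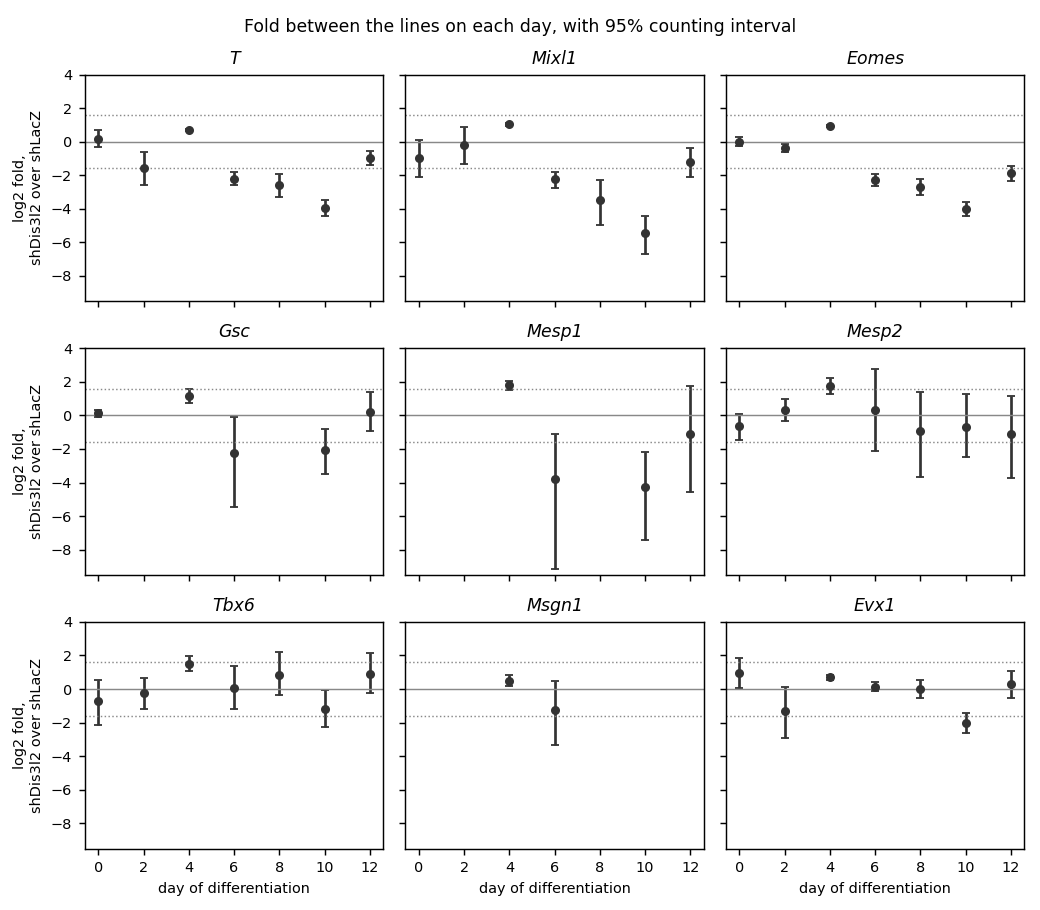
Log2 fold of shDis3l2 over shLacZ on each day for the 9 factors, with 95% counting intervals, a solid line at equal levels and dotted lines at 3-fold either way; days with a bound or with both libraries at or under 3 reads are left out. All 9 points lie above the solid line at d4, and T, Mixl1 and Eomes lie below the lower dotted line at d6, d8 and d10.

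Between d4 and d6 all 9 genes fell past 3-fold in each line, against 5.93% of genes in shLacZ and 7.65% in shDis3l2, and the share of the d4 level left was smaller in shDis3l2 for each of them. T kept 6.15% in shLacZ (5.53 to 6.82%) and 0.818% in shDis3l2 (0.636 to 1.04%). Mixl1 kept 11.9% and 1.23%, and Eomes 12.3% and 1.35%. For these 3 genes and for Gsc (10.6% and 0.998%), Mesp1 (7.64% and 0.163%) and Evx1 (25.5% and 17.5%), the counting intervals of the 2 lines did not overlap, 6 of 9, where the shDis3l2 interval lay below that of shLacZ for 16.3% of genes. Those of Mesp2 (5.14% and 1.93%), Tbx6 (14.3% and 5.36%) and Msgn1 (7.44% and 2.19%) did. Evx1 kept the most of the 9 in both lines, though in shLacZ its interval (21.6 to 30.1%) overlapped that of Tbx6 (7.12 to 26.8%).

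**Figure D3:**
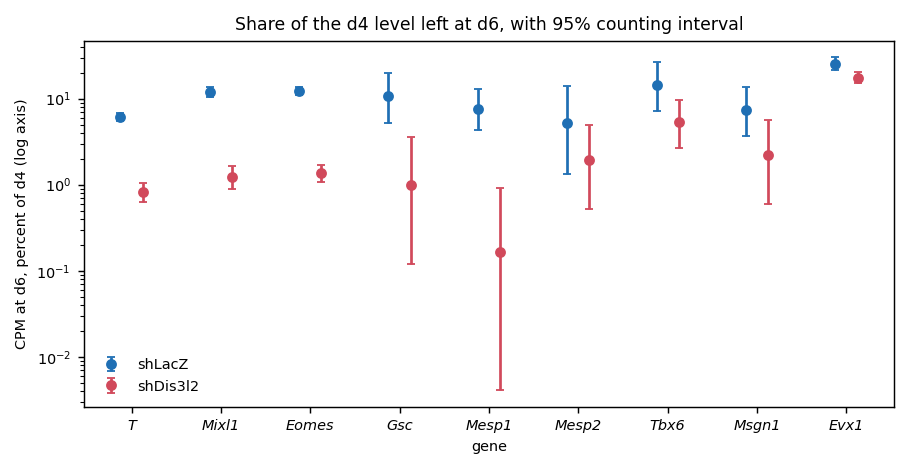
CPM at d6 as a percentage of the CPM at d4 of the same line, on a log axis, for each factor, with 95% counting intervals, 1 library per day and line. The shDis3l2 point is below the shLacZ point for all 9 genes, from 17.5% against 25.5% for Evx1 to 0.163% against 7.64% for Mesp1.

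The test with lines as replicates called all 9 lower at d6 than at d4, against 6.24% of genes. Log2 changes ran from -2.25 ± 0.56 for Evx1 (edgeR adjusted p = 0.026) to -6.18 ± 1.18 for Mesp1 (edgeR adjusted p = 0.00913), with -5.68 ± 1.0 for T (edgeR adjusted p = 0.0066). Of these calls 2 of 9 were left without shDis3l2 d4 and 1 without shDis3l2 d6, against 9 without shLacZ d4 and 6 without shLacZ d6, while genes called overall went from 2762 to 309, 676, 1782 and 1146 in turn. The change stayed negative for all 9 in each of these fits, with T at -4.11 in the weakest.

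T, Mixl1 and Eomes, higher in shDis3l2 at d4, were lower there on every later day, and Mesp1 was lower at d6 and d10, while Evx1 and Tbx6 were level at d6. At d6, T was 4.60-fold lower in shDis3l2 (3.55 to 6.03), Mixl1 4.75-fold (3.43 to 6.72), Eomes 4.78-fold (3.78 to 6.12) and Mesp1 13.6-fold (17 reads against 1, 2.12 to 567). These were the 4 of 9 past the criterion, against 4.27% of genes. Evx1, with 213 and 188 reads, was 1.11-fold higher in shDis3l2 (0.905 to 1.35) and Tbx6 1.06-fold (0.430 to 2.57), both within counting error of equality.

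At d8, T was 5.86-fold lower in shDis3l2 (3.73 to 9.62), Mixl1 11-fold (4.77 to 31.4) and Eomes 6.37-fold (4.64 to 8.92). That made 3 of 9, against 3.77% of genes, and Evx1 stood at 3.25 and 3.26 CPM. At d10 the differences were the widest, with T 15.4-fold lower (11.2 to 21.7), Mixl1 43.1-fold (135 reads against 8, 21.3 to 102) and Eomes 16.1-fold (12.3 to 21.6). Mesp1 (15 reads against 2), Gsc (4.26-fold, 15 reads against 9 in a deeper library) and Evx1 (4.03-fold, 2.67 to 6.14) brought the count to 6 of 9, against 3.17% of genes. At d12 only Eomes passed, 3.69-fold lower (2.69 to 5.12), 1 of 9 against 1.42% of genes, while T was 1.97-fold lower (1.47 to 2.66) and Mixl1 2.35-fold (1.32 to 4.36).

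Both lines moved between d6 and d10. In shLacZ 4 of 9 genes fell again past 3-fold from d6 to d8 (T, Mixl1, Mesp1 and Evx1; 1.06% of genes) and 6 of 9 then rose from d8 to d10 (1.2% of genes), or 3 of 9 with a minimum of 5 CPM. T rose 4.80-fold (3.85 to 6.01), Mixl1 4.85-fold (3.53 to 6.73), Eomes 3.08-fold (2.62 to 3.62), Tbx6 3.41-fold (1.40 to 8.84), Gsc from 2 reads to 15 and Mesp1 from 3 to 15. In shDis3l2 4 of 9 fell from d6 to d8 (T, Mixl1, Eomes and Evx1; 1.48% of genes) and none rose past 3-fold from d8 to d10.

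The last step went opposite ways. From d10 to d12, Mixl1, Mesp1 and Evx1 fell past 3-fold in shLacZ (3 of 9, 0.633% of genes), while T (3.21-fold), Mixl1 (4.45-fold, 8 reads to 18) and Gsc (3.52-fold, 9 reads to 16) rose in shDis3l2 (3 of 9, 1.66% of genes). With 1 library per day, the size of the second rise in shLacZ rests on the d10 library alone. At d12 T (13.5 CPM) was still above its d8 level (6.86 CPM) in shLacZ, and Evx1 (2.48 against 3.25 CPM) was not.

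Tested over d6 to d12 with the days of 1 series treated as replicates, T, Mixl1 and Eomes were lower in shDis3l2 (edgeR, adjusted p under 0.05), where 18.7% of 17164 genes were lower and 19.6% higher. Of the 9 members, 7 passed the filter on low counts. Eomes differed by -2.72 ± 0.33 on the log2 scale (edgeR adjusted p = 0.00146), T by -2.40 ± 0.43 (edgeR adjusted p = 0.00574) and Mixl1 by -2.95 ± 0.59 (edgeR adjusted p = 0.00866), each lower in 4 of 4 days. Mesp1, at -2.99 ± 0.63 (edgeR adjusted p = 0.0109), passed the filter only through its shLacZ libraries, so its call is not counted with them, and did not pass it without d6 or without d10. Evx1 (-0.38 ± 0.38, edgeR adjusted p = 0.462), Gsc (-0.98 ± 0.55, edgeR adjusted p = 0.203) and Tbx6 (0.14 ± 0.42, edgeR adjusted p = 0.818) did not pass. Without the day block 2 calls were left.

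Over all 7 days, 0 of 9 differed between the lines by edgeR or by DESeq2, where 5.72% of genes did by edgeR in either direction. At an unadjusted p under 0.05, 3 did, namely T, Mixl1 and Eomes, and 26.5% of genes. T, at -1.37 ± 0.54, had an edgeR adjusted p = 0.143. A test of whether the difference between the lines changed from d4 to d6 through d12, added after these opposite directions were seen, holds a single pair of libraries at d4, and its sign restates the pattern that prompted it. Its values ran from -4.87 ± 0.66 for Mesp1 and -3.70 ± 0.57 for Eomes to -1.08 ± 0.64 for Evx1. Of 9, 0 were called by edgeR (0.124% of genes were, in either direction; adjusted p = 0.0617 for Mesp1 and 0.0747 for Eomes), 6 had an unadjusted p under 0.05 (15.2% of genes), and DESeq2 called 2, Mesp1 and Eomes (3.49% of genes). Without d6 or without d12 edgeR called 3, without d10 it called 1 and without d8 it called 0. On data simulated with the same fixed spread for all genes, this test recovered 91 of 200 planted 4-fold changes.

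Markers of other cells also differed between the lines late, but not all on the same days. By ratio, shLacZ given first, the lines were furthest apart at d10 for the 9 streak factors (109 and 8.95 CPM) and epiblast-like markers (496 and 45.1 CPM). For pluripotent-like (380 and 64.5 CPM) and visceral endoderm-like markers (2706 and 519 CPM) this was at d6. For mesenchyme-like markers it was at d12 (924 and 15711 CPM). From d6 to d12, the 8 pluripotent-like markers summed to 380 to 541 CPM in shLacZ and 64.5 to 373 CPM in shDis3l2, and the 4 epiblast-like markers to 258 to 496 CPM and 43.9 to 110 CPM. Visceral endoderm-like markers summed to 2706 to 6169 CPM in shLacZ and 519 to 1662 CPM in shDis3l2, and mesenchyme-like markers, collagens with Postn and Lum, to 105 to 1505 CPM and 840 to 15711 CPM. Primitive erythroid-like markers summed to 5.65 to 794 CPM and 33.3 to 1293 CPM, and neural-like markers, of which Neurog1 was at 0 in most libraries, to 33.3 to 81.4 CPM and 64.9 to 178 CPM. By the same test 6 of 8 pluripotent-like, 4 of 4 epiblast-like and 6 of 6 visceral endoderm-like markers were lower in shDis3l2 and 5 of 5 mesenchyme-like markers higher, with 2 of 5 erythroid-like higher and 1 higher and 2 lower of 4 neural-like markers tested. Their part in the difference of the streak factors was not tested.

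**Figure D4:**
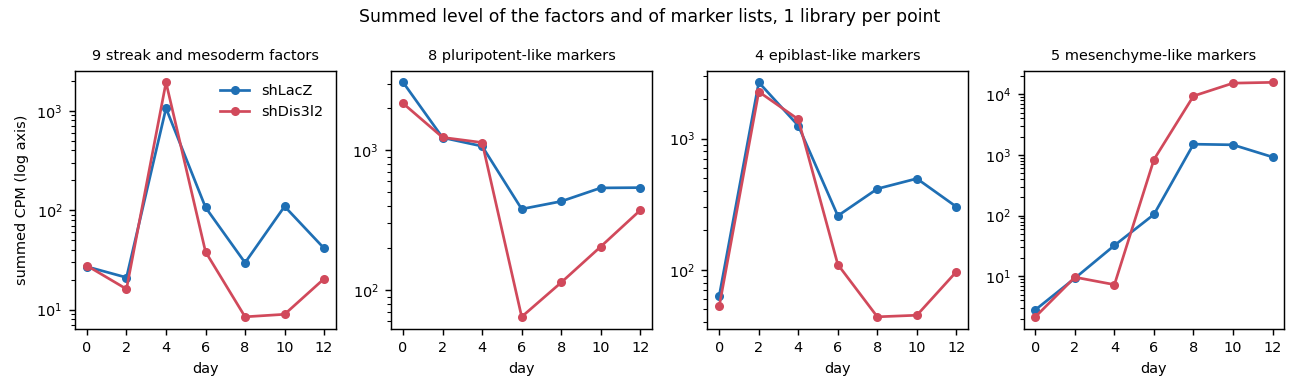
Summed CPM on a log axis against day for the 9 factors and for pluripotent-like, epiblast-like and mesenchyme-like markers, 1 point per library, shLacZ in blue and shDis3l2 in red. At d4 the 9 factors sum to 1060 CPM for shLacZ and 1929 for shDis3l2, and at d10 to 109 and 8.95 CPM. On d10 the epiblast-like markers stand at 496 and 45.1 CPM, the pluripotent-like at 538 and 205 CPM and the mesenchyme-like at 1469 and 15250 CPM.

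The counts of the other genes of these pathways stand against 9.25% of all genes higher and 8.23% lower at d4 than at d2, and 7.54% higher and 6.24% lower at d6 than at d4. For the lines over d6 to d12 they stand against 19.6% of genes higher and 18.7% lower in shDis3l2. Among 22 inducing signals and their readouts, 9 rose and 2 fell from d2 to d4 (edgeR, adjusted p under 0.05), 2 rose and 9 fell from d4 to d6, and from d6 to d12, where 21 were tested, 2 were higher and 10 lower in shDis3l2. Their median log2 change at d4 against d2 was 0.94, against -0.05 over all genes. Cer1, a secreted Nodal and Wnt antagonist, rose by 8.70 on the log2 scale (edgeR adjusted p = 0.00565) and was 2.73-fold higher in shDis3l2 at d4 (2.19 to 3.45). Sp5, a Wnt target, rose by 6.91 (edgeR adjusted p = 0.00214) and was 2.30-fold higher. Fst, an activin antagonist, rose by 3.25 (edgeR adjusted p = 0.00253) and was 1.64-fold higher. The Nodal co-receptor Tdgf1 (1.86-fold) and the Nodal antagonist Lefty2 (2.89-fold) stood higher in shDis3l2 at d4, and the receptor Bmpr1a was level (148 and 149 CPM). The ligand Bmp4 stood lower there, at 0.587-fold (0.467 to 0.739), and Nodal slightly lower, at 0.918-fold (0.844 to 0.9998). Of the 22 compared between the lines at d4, 0 passed the 3-fold criterion either way, with a median log2 fold of 0.28. Fgf5, another gene of this list, is also among the epiblast-like markers.

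Of 14 other streak and node genes tested, 10 rose and 0 fell at d4 against d2, with a median log2 change of 3.38, 7 fell and 0 rose at d6, and 7 of 12 were lower and 0 higher in shDis3l2 from d6 to d12. Lhx1, a factor of the anterior streak and node, stood at 93.5 CPM in shLacZ at d4 and at 316 CPM in shDis3l2, a 3.38-fold difference (3.13 to 3.67), the only one of 13 compared that passed the 3-fold criterion. Snai1, which represses E-cadherin as cells leave the epithelium, was 2.95-fold higher (2.55 to 3.43), and the organizer antagonist Chrd 1.63-fold (1.32 to 2.02). Ifitm1, a membrane protein gene, was 1.20-fold higher (1.11 to 1.30). Nkx1-2 was lower, at 0.649-fold (0.507 to 0.835), and the median log2 fold of the 13 compared was 0.34.

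Of 12 presomitic and segmentation genes tested, 2 rose and 1 fell at d4 (median log2 change 0.67), 1 rose and 5 fell at d6, and 3 were higher and 3 lower in shDis3l2 from d6 to d12. The Notch ligands Dll1 (2.68-fold, 2.23 to 3.24) and Dll3 (2.65-fold, 2.25 to 3.14) and the Notch modifier Lfng (2.33-fold, 1.79 to 3.08) stood higher in shDis3l2 at d4, as Mesp2 and Tbx6 did. The receptor Notch1 was 1.6-fold higher and Rspo3, a Wnt agonist, 1.18-fold. Cited1 of the same list was lower, at 0.557-fold (0.458 to 0.680). Of 9 compared between the lines at d4, 0 passed the 3-fold criterion either way, with a median log2 fold of 0.68.

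Early mesoderm derivatives took another course. Of 21 tested, 12 rose and 1 fell at d4 (median log2 change 2.55), 9 rose and 0 fell at d6, when all 9 streak factors fell, and 12 were higher and 2 lower in shDis3l2 from d6 to d12. At d4 Kdr, a receptor of vascular progenitors (68.8 and 115 CPM), and Pdgfra, a receptor of paraxial and cardiac mesoderm (86.8 and 146 CPM), were each 1.68-fold higher in shDis3l2, and Foxc1 was 2.81-fold higher (1.74 to 4.80). Gata2, a factor of blood progenitors, stood at 0.326-fold (0.238 to 0.448) the shLacZ level (11.8 and 3.87 CPM) and Gata4 was level (71.6 and 69.9 CPM). Kdr was also higher in shDis3l2 from d6 to d12, by 1.61 on the log2 scale (edgeR adjusted p = 0.0127). Gata4 was lower there over the same days, by -0.90 (edgeR adjusted p = 0.00036).

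The other T-box genes did not share the course of T, Eomes and Tbx6. Of 10 paralogs tested, 2 rose and 2 fell at d4 (median log2 change 0.46) and 3 rose and 0 fell at d6, and of 8 tested from d6 to d12, 5 were higher and 1 lower in shDis3l2. Tbx20, a heart factor, rose by 3.01 at d4 and by 3.02 again at d6 on the log2 scale (edgeR adjusted p = 0.00975 and 0.00868) and was higher in shDis3l2 from d6 to d12 by 1.56 (edgeR adjusted p = 0.00767). Tbx3 was 0.839-fold (0.738 to 0.957) and Mga, the paralog with the highest CPM at d4, 0.890-fold (0.845 to 0.938) at d4 in shDis3l2 relative to shLacZ. Tbx5, Tbx18 and Tbx20 also stand in the lists of derivatives or segmentation genes.

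Over the 14 libraries the courses of the 9 genes on log2(CPM + 1) had pairwise Pearson correlations from 0.350 (Gsc with Evx1) to 0.988 (T with Mixl1). The courses share the same libraries and a rise at d4, so these values describe the course and not regulation. The gene most like Mixl1, Eomes, Mesp1 and T was Fgf8, a growth factor of the streak (r = 0.956, 0.975, 0.959 and 0.946). The gene most like Tbx6 was Hoxb1 (r = 0.970), the one most like Msgn1 was Wnt2b (r = 0.973) and the one most like Evx1 was Six2 (r = 0.976). Mesp2 was most like Dll3 (r = 0.919) and Gsc most like Ism2 (r = 0.956). The gene most like the mean course was Lrrfip2 (r = 0.967), followed by Fgf8 (r = 0.955). Correlation does not weigh the size of a change. Lrrfip2 went only from 32.9 CPM at d2 to 56.4 at d4 in shLacZ and from 30.9 to 63.1 in shDis3l2. Of the 10 genes nearest to the mean course, 2 were still among the 10 without the 2 libraries of d4 and 0 with Spearman correlation.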

How the data were processed

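PolyA RNA of 14 libraries was sequenced by the authors on an Illumina NextSeq. They aligned reads to GRCm38 (Ensembl) with Subread 1.6.3 and counted them with featureCounts 1.6.3, and deposited whole-number counts per gene without normalization, on which all tests were run. The deposited CPM table equals the count plus 0.25 over the total of its listed genes. Handling of multi-mapped reads and strand was not given in the sources used here. The columns of the knockdown line carry another name, matched through the study's supplementary headings. CPM was recomputed here from library totals.

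Tests used edgeR 4.0.16 in R 4.3.3 with TMM scaling, the filterByExpr filter and its quasi-likelihood test, day and line as terms, and Benjamini-Hochberg adjustment over all genes tested (threshold 0.05). DESeq2 1.42.0, DESeq2 size factors, library totals, no filter, no block, a 2-fold criterion, a minimum of 5 CPM and leaving out libraries or days were alternatives. TMM factors were 0.711 and 0.623 at d0 and about 1 elsewhere. Nothing in the labels says that samples came from separate cultures, so p-values measure only the spread between these libraries. Intervals cover counting error only, because each line and day has 1 library. Reads amplified by PCR and not tagged by molecule are not independent, so the intervals can be too narrow even for that error. On simulated data edgeR recovered 192 of 200 planted 4-fold changes for d4 against d2, 189 for d6 against d4 and 198 for the lines over d6 to d12. The simulated counts had the same fixed spread for all genes and, apart from planted changes, no difference between the courses of the lines. These rates therefore do not tell how many real changes of this size the tests would find here.

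The members, gene lists and motifs were chosen with earlier results of these data known. Named were the members, Dis3l2, the nearest genes by course (protein-coding, at least 5 CPM in 2 libraries) and, of each list, the 3 genes with the largest fold between the lines at d4 and the 3 with the highest CPM among those with at least 5 CPM. Single values under this rule are in part not reported here. Other steps used Python 3.11.15.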

Additional observations from a re-analysis of the deposited data

Results flagged for a closer look

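For 4 factors the step between neighboring late days went opposite ways in the 2 lines with both counting intervals excluding 1. Other opposite steps had an interval that included 1 in at least 1 line. From d10 to d12 the fold of T was 0.410 in shLacZ and 3.21 in shDis3l2, that of Mixl1 0.243 and 4.45, and that of Eomes 0.391 and 1.71. From d8 to d10 the fold of Evx1 was 2.34 in shLacZ and 0.582 in shDis3l2. Each fold compares single libraries, so these differences between the lines were not tested.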

How the results depend on the processing

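No result turned in direction past its threshold under any alternative run. With a 2-fold criterion, members counted as lower in shDis3l2 were 1 at d2 and 2 at d12, and as higher 5 at d4. With it, 1 member was higher at d2 than d0 in each line and 5 were lower at d12 than d10 in shLacZ. With a minimum of 5 CPM, 3 were higher at d10 than d8 in shLacZ, 1 was lower at d2 than d0 and 1 higher at d12 than d10 in shDis3l2. Between d4 and d2, genes called fell from 3506 to 2170 without the block and ran from 1032 to 2173 without 1 library. Between d6 and d4 they fell from 2762 to 1344 without the block and ran from 309 to 1782 without 1 library, with 1 to 9 members lower.

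Between the lines over 7 days, genes called were 1147, 2522 with DESeq2, 2093 without the filter, 0 without the block and 8 to 2189 without 1 day. Members lower were 1 without the filter (T) and 0 to 1 without 1 day (Mesp1 without d4). In that fit Mesp1 passed the filter only through its shLacZ libraries, so its call gives no support. Over d6 to d12, without the block 2 members were lower and 3334 genes were called, against 6574, and without 1 day 3336 to 6677. For the change of the difference from d4, DESeq2 called 496 genes and 2 members, against 23 and 0, and leaving out 1 day gave 0 to 443 genes and 0 to 3 members (3 without d6 or d12, 1 without d10). Of the 10 genes nearest to the mean course, 0 were shared with Spearman correlation and 2 without d4. The causes were not tested. Comparisons of the lines had the day as a block and comparisons of days the line, and the labels carry no replicate numbers beyond that. Depth limits Mesp1, Mesp2, Msgn1, Gsc and Tbx6 outside d4, except Gsc at d0 (528 and 379 reads). Mesp2 had 22 to 52 reads at d0 and d2, against 42 in shLacZ at d4.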
